A study of Homo sapiens with 4 samples.

Results

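The Hippo effectors and a set of YAP/TEAD target genes were examined in T24 cells, a line established from a human urinary bladder carcinoma, with and without overexpression of CBX7. The set is 10 genes given by name, of 60623 in the deposited table: the coactivators YAP1 and WWTR1 (TAZ), the DNA-binding factors TEAD1, TEAD3 and TEAD4, and the targets CYR61, CTGF, ANKRD1, AMOTL2 and LATS2. CYR61 and CTGF stand in the table under their newer symbols CCN1 and CCN2. Total RNA of 2 control libraries and 2 libraries of CBX7-overexpressing T24 cells was sequenced, all grown in RPMI with 10% FCS. Full-length CBX7 was carried on a FLAG vector, and the sources used here do not say whether control cells carried the empty vector, or whether a line was a clone or a pool. They also do not say whether libraries of a group came from separate cultures. The p-values therefore measure only the spread between these libraries, estimated in part or wholly from other genes.

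In the Hippo pathway, a kinase cascade that ends in LATS1 and LATS2 phosphorylates YAP1 and WWTR1 and holds them in the cytoplasm. When the cascade is weak, for example in cells that are spread and under tension, both coactivators enter the nucleus and bind TEAD proteins, which recognise DNA but activate poorly by themselves. Secreted matrix proteins such as CYR61 and CTGF are induced, and so are AMOTL2 and LATS2, which restrain YAP1 in turn. Much of this control acts on protein location, which RNA does not measure.

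The libraries held 20800910 to 25135488 expected counts (estimated reads per gene, which need not be whole). CPM below is the expected count scaled to library size with TMM factors, which offset differences in composition, and serves to compare libraries. TPM, as deposited, also divides by gene length and serves to compare genes. CBX7 itself was at 10.96 and 9.68 CPM in the control libraries and at 1775 and 1595 CPM in the CBX7 libraries, which matched the labels. The epithelial keratins KRT7, KRT8 and KRT18 lay between 957 and 1761 CPM, with the highest value of each in CBX7 replicate 1. KRT19 was at 6.54 and 5.72 CPM in control and at 18.5 and 12.8 CPM with CBX7, 2.55-fold higher (adjusted p = 0.352 in edgeR, 0.00361 in DESeq2's Wald test), and its part in the results was not tested. The 3 uroplakins of differentiated urothelium had at most 3 counts in any library, and markers of leukocytes and endothelium at most 4. CBX7 replicate 1 differed from control replicate 1 by transcript length. Relative to control replicate 1, the median log2 ratio of CPM ran from 0.31 over the 2209 genes with the shortest transcripts to -0.31 over the 2209 with the longest, whereas between the replicate 2 libraries both medians were within 0.02 of 0. The control libraries were not compared with each other in this way, so the trend is not assigned to a single library. For YAP1, TEAD1 and LATS2, which have long transcripts, control replicate 1 also lay below control replicate 2 in CPM. Results on these genes are given with and without CBX7 replicate 1. Changes are also given after each library was corrected for its own trend with length and GC content. The part of this trend in the results was not tested beyond these fits.

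All 10 genes were expressed and all 10 passed the filter on low counts. ANKRD1, at 2.83-fold, and CTGF, at 1.40-fold, were higher in both CBX7 libraries, and the other 8 were within a log2 fold change of 0.35 of no difference. At a Benjamini-Hochberg adjusted p under 0.05, 0 of the 10 passed edgeR's quasi-likelihood test over 14862 genes, in which 0.0202% of all genes passed. DESeq2's Wald test called 1 of the 10, ANKRD1, against 0.451% of all genes. At an unadjusted p under 0.05, 2 of the 10 were higher with CBX7 (ANKRD1 and CTGF) against 3.42% of all genes, and 0 were lower against 1.32%. The log2 fold change was above 0 for 5 of the 10, as for 50.3% of all genes, and its median was 0.010 over the 10, against 0.0017 over all genes tested. In CPM each CBX7 library exceeded each control for 3 of the 10 (ANKRD1, CTGF and TEAD4), against 15.4% of all genes. Each lay below both controls for 1 (AMOTL2), against 14.8% of all genes. The smallest p of a two-sided exact permutation test with 2 libraries against 2 is 0.333, and all p-values below borrow their estimate of spread from other genes. In bulk RNA, fewer cells expressing a gene and less RNA per cell cannot be told apart.

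**Figure D1:**
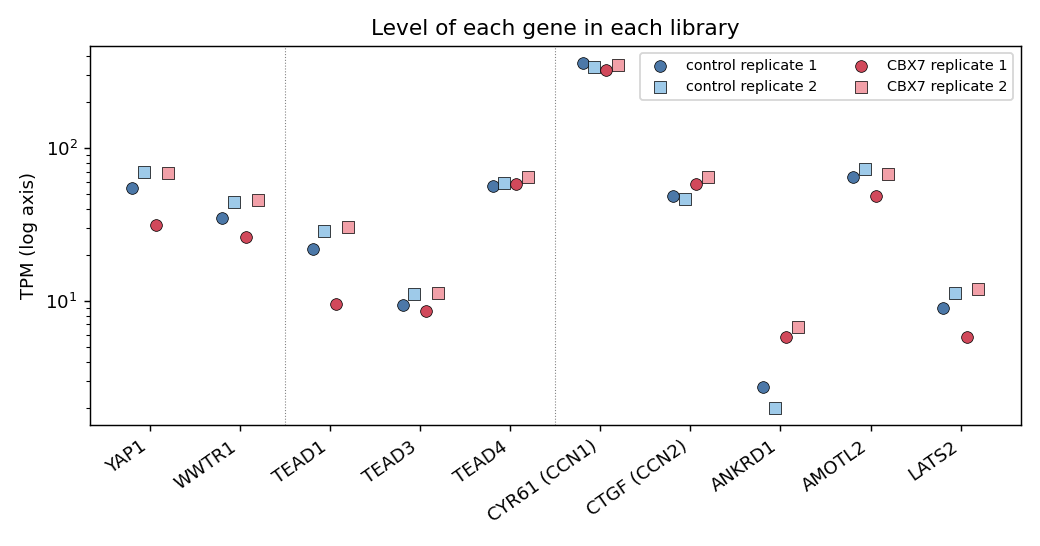
TPM (log axis) of the 10 genes in each of the 4 libraries, with circles for replicate 1 and squares for replicate 2 of control (blue) and CBX7-overexpressing (red) cells. CYR61 sits above 300 TPM in all 4 libraries, ANKRD1 is at 2.73 and 2.00 TPM in control and at 5.76 and 6.78 TPM with CBX7, and TEAD1 is lowest in CBX7 replicate 1, at 9.59 TPM.

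Per length, CYR61 was the leading transcript of the set by a wide margin, with 348 ± 14.8 TPM in control and 337 ± 19.1 TPM with CBX7 (± SD, n = 2 for either group). It accounted for 70.0% to 74.2% of the summed TPM of the 5 targets. In control cells AMOTL2, YAP1 and TEAD4 followed at 68.9, 62.4 and 58.0 TPM, and neighbours in that order overlapped between libraries. CTGF at 47.5 TPM, WWTR1 at 39.4 TPM and TEAD1 at 25.2 TPM came next without overlap, then TEAD3 and LATS2 at 10.2 and 10.1 TPM, whose ranges overlapped. ANKRD1 was last at 2.37 TPM. In CBX7-overexpressing cells, CTGF stood second at 61.6 TPM and ANKRD1 remained last at 6.27 TPM, but the ranges of all neighbours below CYR61 overlapped. The places of TEAD1 and WWTR1 depend on the length used. The table lists 1281 bases for TEAD1 and 1603 for WWTR1, against 8477 and 5030 bases for their longest transcripts in GENCODE release 29. The listed lengths conflict with the deposited values themselves: scaled so that the typical gene meets its listed length, the ratio of count to TPM corresponds to 7737 to 9582 bases for TEAD1 and 4095 to 4490 bases for WWTR1 across the 4 libraries, near the longest transcripts. With counts divided by the listed lengths TEAD1 ranked 2 and WWTR1 ranked 3 in both groups, instead of 7 and 6.

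YAP1 and WWTR1 encode the paralogous coactivators. YAP1 (ENSG00000137693, chromosome 11 of GRCh38 from 102110461 to 102233423, plus strand) had 184 and 214 CPM in control and 131 and 203 CPM in CBX7-overexpressing cells. CBX7 replicate 1 was the lowest library, and CBX7 replicate 2 lay between the control libraries. On the log2 scale the groups differed by -0.25 (standard error 0.23, adjusted p = 0.951, edgeR). Within replicate number 1 the log2 ratio of CBX7 to control was -0.48, and within number 2 it was -0.079. WWTR1 (ENSG00000018408, chromosome 3 from 149517235 to 149736714, minus strand) had 96.9 and 107 CPM in control and 86.3 and 114 CPM with CBX7, so the CBX7 libraries lay on either side of the controls. Its log2 fold change was -0.029 (standard error 0.18). In the deposited TPM, YAP1 was the more abundant of the pair. The ratio of YAP1 to WWTR1 was 1.58 and 1.59 in control, 1.501 in CBX7 replicate 2 and 1.19 in CBX7 replicate 1. With counts divided by the listed lengths it was 0.563 and 0.593 in control and 0.451 and 0.530 with CBX7, so the order turned around, but on the listed length of WWTR1, which its TPM does not bear out.

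The TEAD proteins share a DNA-binding domain and a surface for YAP1 and WWTR1, and cells differ in which paralog they use. By the deposited TPM, TEAD4 was the main TEAD transcript of T24 cells, with 55.7% and 53.1% of the summed TPM of TEAD1 to TEAD4 in the control libraries, and 64.9% and 52.9% in the CBX7 libraries. TEAD1 held 21.5% and 25.4% in control, 24.9% in CBX7 replicate 2 and 10.6% in CBX7 replicate 1. TEAD2, which is not among the 10 genes, held 11.7% to 15.0% and TEAD3 9.22% to 9.88%. The leading paralog would change with the listed length of TEAD1, which its TPM does not bear out. With counts divided by the listed lengths, the ratio of TEAD4 to TEAD1 was 0.456 and 0.379 in control and 0.875 and 0.435 with CBX7, so TEAD1 stood above TEAD4 in all 4 libraries.

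**Figure D2:**
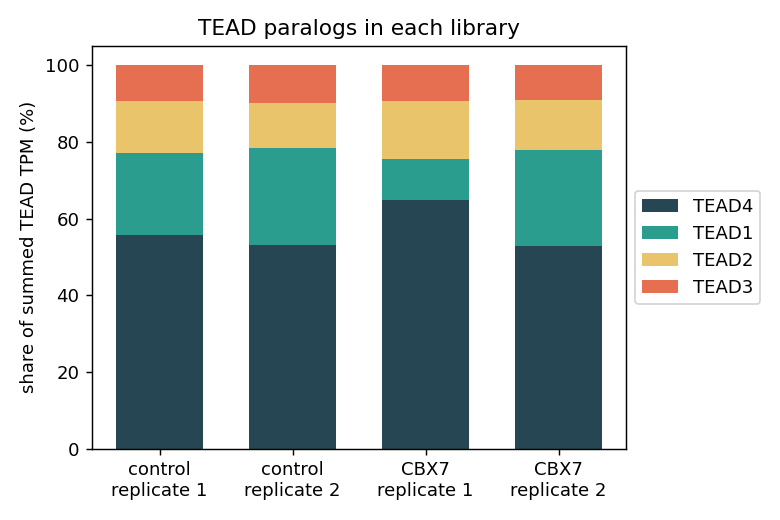
Share (%) of each TEAD paralog in the summed deposited TPM of TEAD1 to TEAD4, as a stacked bar for each of the 4 libraries. TEAD4 is the largest part of every bar, at 52.9% to 64.9%, and the TEAD1 part is smallest in CBX7 replicate 1, at 10.6%, while with counts over the listed lengths, which conflict with the TPM of TEAD1, TEAD1 stands above TEAD4.

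TEAD1 (ENSG00000187079, chromosome 11 from 12674591 to 12944483, plus strand) had the lowest log2 fold change of the 10, at -0.34 (standard error 0.34, adjusted p = 0.951, edgeR). Its levels were 117 and 144 CPM in control and 67.9 and 137 CPM with CBX7. CBX7 replicate 1 was the lowest library, and CBX7 replicate 2 lay between the control libraries. TEAD3 (ENSG00000007866, chromosome 6 from 35473597 to 35497076, minus strand) was even across libraries, with 20.4 and 22.8 CPM in control and 21.8 and 22.9 CPM with CBX7. TEAD4 (ENSG00000197905, chromosome 12 from 2959330 to 3040673, plus strand) had 71.0 and 72.6 CPM in control and 79.2 and 79.7 CPM with CBX7. The groups of TEAD4 did not overlap in CPM, by a small step, with a log2 fold change of 0.15 (standard error 0.13, adjusted p = 0.951, edgeR). After the length and GC correction it was -0.031 (standard error 0.17), so its direction depends on the correction. In TPM the groups of TEAD4 overlapped, at 56.5 and 59.4 in control and 58.5 and 64.3 with CBX7.

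**Figure D3:**
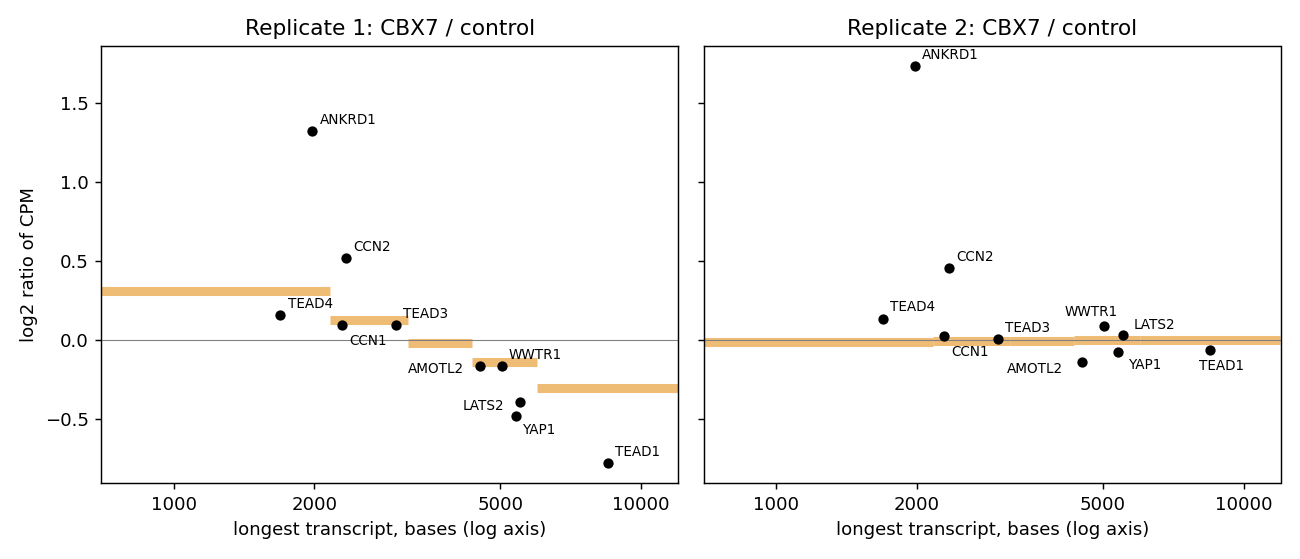
Log2 ratio of CPM between CBX7 and control libraries of the same replicate number (vertical axis) for the 10 genes (points, labelled with the table's symbols) against the length of the longest transcript in bases (log axis). Orange bars are the medians of all genes in length quintiles, which run from 0.31 to -0.31 in replicate 1 and stay within 0.02 of 0 in replicate 2. ANKRD1 and CTGF (CCN2) lie above the bars in both panels, and YAP1, LATS2 and TEAD1 lie below 0 by over 0.39 in replicate 1 only.

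The sign of 5 of the 10 log2 fold changes turned when CBX7 replicate 1 was left out. WWTR1 went from -0.029 to 0.16 and CYR61 from 0.062 to -0.046, neither past the adjusted threshold. Without that library the log2 fold changes of YAP1, TEAD1 and LATS2 were 0.032, 0.081 and 0.13, and none passed the adjusted threshold. Without CBX7 replicate 2 they were -0.60, -0.94 and -0.49, with adjusted p of 3.44e-07, 2.09e-14 and 0.000382 (edgeR). In that fit 35.5% of all genes passed the same threshold. In such fits the lone library of a group is assumed to vary like those of the other group, and a gene's own spread had no weight. With all 4 libraries and the length and GC correction the 3 values were -0.16, -0.22 and -0.099, and none passed.

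None of the 5 targets passed the adjusted threshold in the edgeR test described above, and the other fits are given after CTGF. CYR61 and CTGF encode secreted proteins of the CCN family that bind integrins and matrix, and ANKRD1 encodes an ankyrin repeat protein best known from stressed muscle and often used, with the other 2, as a readout of YAP1 activity. The RefSeq promoters (250 bases before to 50 after the transcription start, GRCh38.p14) of CTGF, ANKRD1 and AMOTL2 are shown. CTGF and ANKRD1 were the 2 genes higher with CBX7 at an unadjusted p under 0.05 (edgeR). AMOTL2 was taken because its CBX7 libraries lay below both controls in CPM, though not in TPM. Capitals mark GGAATG, the core of the TEAD element, read on both strands (its reverse complement is CATTCC). They also mark TGANTCA on both strands, a loose form of the AP-1 element that allows any base in the middle. The windows are chr6:131951323-131951622 for CTGF, chr10:90921038-90921337 for ANKRD1 and chr3:134374398-134374697 for AMOTL2, all on the minus strand.
CTGF: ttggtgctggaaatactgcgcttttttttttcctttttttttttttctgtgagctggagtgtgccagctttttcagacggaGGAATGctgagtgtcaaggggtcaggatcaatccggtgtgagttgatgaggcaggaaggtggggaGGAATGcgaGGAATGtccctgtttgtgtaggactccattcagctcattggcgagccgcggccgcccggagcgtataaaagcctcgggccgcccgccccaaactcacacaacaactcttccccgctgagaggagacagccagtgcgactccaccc
ANKRD1: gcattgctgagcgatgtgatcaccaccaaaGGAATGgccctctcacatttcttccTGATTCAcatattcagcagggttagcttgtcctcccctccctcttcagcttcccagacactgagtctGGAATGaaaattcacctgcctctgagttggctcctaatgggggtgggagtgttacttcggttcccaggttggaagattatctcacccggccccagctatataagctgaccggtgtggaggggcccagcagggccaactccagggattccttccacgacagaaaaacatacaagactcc
AMOTL2: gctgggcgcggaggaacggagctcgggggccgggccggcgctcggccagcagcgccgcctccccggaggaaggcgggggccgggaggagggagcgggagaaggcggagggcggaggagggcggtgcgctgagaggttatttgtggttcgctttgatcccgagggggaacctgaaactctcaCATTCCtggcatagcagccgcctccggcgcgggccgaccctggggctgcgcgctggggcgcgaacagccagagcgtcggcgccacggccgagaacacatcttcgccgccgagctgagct

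GGAATG occurred 3 times in the CTGF window, at positions -169, -104 and -95 from the transcription start, and 2 times in that of ANKRD1, at -220 and -128. Between the 2 in ANKRD1 lay a match to the loose AP-1 pattern, TGATTCA, at -195. The AMOTL2 window shown held 1 match, at -69, and a second annotated start of AMOTL2 had none. Of 35116 promoter windows of this length, 14.0% held GGAATG and 7.71% TGANTCA. Promoters were found for 7 of the 10 genes, in 9 windows. By window, as for the share above, 5 of the 9 held GGAATG, and these belonged to 5 genes. Besides the 3 above, these were YAP1, at -162, and LATS2, where it lies after the start. WWTR1 and TEAD3 had none in their windows. A match of letters is not a bound site.

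ANKRD1 (ENSG00000148677, chromosome 10 from 90912096 to 90921276, minus strand) showed the largest difference of the 10. It had 89 and 55 expected counts in control and 225 and 195 with CBX7, or 3.73 and 2.62 CPM against 9.32 and 8.73 CPM. Both CBX7 libraries lay well above both controls. The level was 2.83-fold higher, a log2 fold change of 1.5 (standard error 0.23, unadjusted p = 0.000833, adjusted p = 0.285, edgeR). The difference was 2.50-fold within replicate number 1 and 3.33-fold within number 2, and its log2 value was 1.47 (standard error 0.20, adjusted p = 0.112, edgeR) after the length and GC correction. By size it ranked 92 of 14862 genes from the top. DESeq2's Wald test gave ANKRD1 an adjusted p of 0.00558. Over 12 alternatives with all 4 libraries the log2 fold change of ANKRD1 ran from 1.12 to 1.51 and its adjusted p from 2.56e-08 to 0.938, and it passed 0.05 in 5.

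CTGF (ENSG00000118523, chromosome 6 from 131948176 to 131951373, minus strand) had 79.9 and 73.6 CPM in control and 114 and 101 CPM with CBX7. The groups did not overlap, and the lower CBX7 library stood above the higher control. The level was 1.40-fold higher, a log2 fold change of 0.49 (standard error 0.14, unadjusted p = 0.0152, adjusted p = 0.776, edgeR). The ratio was 1.43 within replicate number 1 and 1.37 within number 2. After the length and GC correction the log2 fold change was 0.42 with a standard error of 0.074 (adjusted p = 0.226, edgeR).

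The calls of these 2 genes changed with the fit. The prior degrees of freedom, the weight given to the spread shared over genes, were 3.61 in the first edgeR test. They were 17.3 with the replicate number as a block and the length and GC correction together. With no filter, with the block alone and in fits with a library left out they were infinite, so a gene's own spread had no weight. ANKRD1 was the 1 gene of the 10 to pass with no filter on low counts (against 1.01% of all genes), with the replicate number as a block (against 2.43%), after a correction by effective length and GC content (against 0.505%) and without control replicate 1 (against 0.384%). Both ANKRD1 and CTGF passed with that block added to the length and GC correction (2 of 10, against 2.23%) and without CBX7 replicate 1 (2 of 10, against 2.59%). None of the 10 passed with at least 10 counts required in every library (0.0215% of all genes), after the length and GC correction alone (0.0606%), with limma on log2 TPM at a pseudocount of 1 or 0.1 (0.0149% each) or without control replicate 2 (0.291%).

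CYR61 (ENSG00000142871, chromosome 1 from 85580761 to 85583962, plus strand), with by far the highest level of the set, differed by less than the spread between libraries. It had 572 and 518 CPM in control and 611 and 526 CPM with CBX7, which interleave. Between groups it differed by 0.062 on the log2 scale (standard error 0.14, adjusted p = 0.953, edgeR) and by 0.0041 (standard error 0.071) after the correction, and on the TPM scale its mean was slightly lower with CBX7. The TPM ratio of CYR61 to CTGF was 7.42 and 7.26 in control and 5.54 and 5.43 with CBX7. That of CYR61 to ANKRD1 was 132 and 169 in control and 56.2 and 51.8 with CBX7. Both ratios were lower in both CBX7 libraries, which restates the values of CTGF and ANKRD1 above and is no separate result.

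AMOTL2 and LATS2 are targets that restrain the pathway, AMOTL2 as a junctional protein of the angiomotin family that binds YAP1 and LATS2 as the kinase that phosphorylates it. AMOTL2 (ENSG00000114019, chromosome 3 from 134355874 to 134375479, minus strand) had 207 and 220 CPM in control and 185 and 199.6 CPM with CBX7. In CPM the CBX7 libraries were both the lower, by a log2 fold change of -0.15 (standard error 0.13, adjusted p = 0.951, edgeR). It was -0.17 within replicate number 1 and -0.14 within number 2. In TPM the groups overlapped, at 64.9 and 73.0 in control and 48.4 and 67.3 with CBX7. LATS2 (ENSG00000150457, chromosome 13 from 20973032 to 21061547, minus strand) had 37.9 and 43.1 CPM in control and 28.8 and 44.0 CPM with CBX7. Here the CBX7 libraries were the lowest and the highest of the 4, and the log2 fold change was -0.15 (standard error 0.23).

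**Figure D4:**
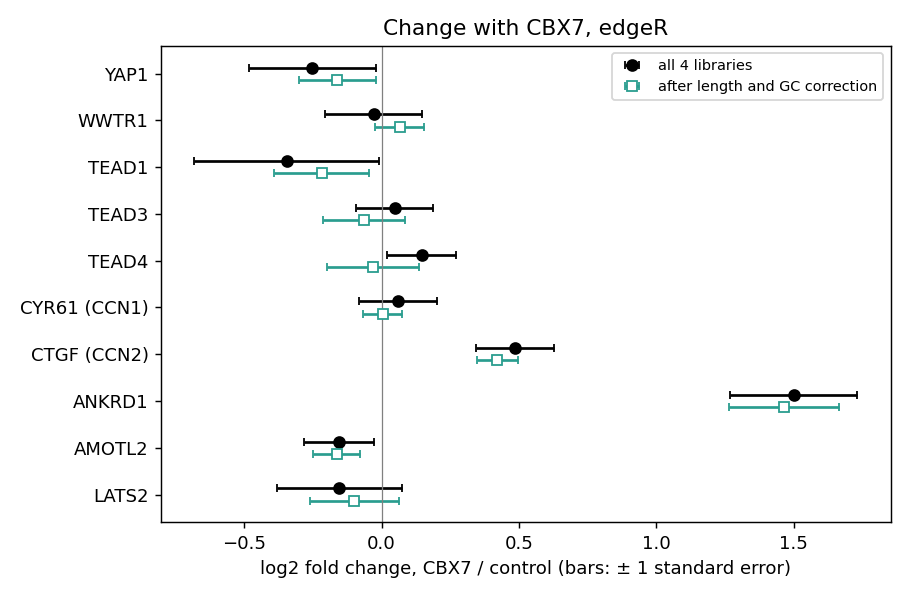
Log2 fold change of CBX7-overexpressing over control cells for the 10 genes, with bars of 1 standard error, from edgeR with all 4 libraries (filled circles) and after the length and GC correction (open squares). ANKRD1 at 1.5 and CTGF at 0.49 lie to the right of 0 in both fits, CYR61 lies at 0.062 and 0.0041, and the bars narrow for 8 of the 10 genes.

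Opposite-strand genes overlap several of the 10, and the sources used here do not say that strand was kept in counting. Of these, WWTR1-AS1 had at most 11.6 expected counts in a library and the antisense gene at CTGF, AL133346.1, at most 5.

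Upstream of the effectors, 23 genes of the kinase cascade and its scaffolds and adaptors were all tested, and 0 passed an adjusted p under 0.05 in either direction by edgeR (0.0202% of all genes) or by DESeq2's Wald test (0.451%). At an unadjusted p under 0.05 in edgeR the count was also 0, against 3.42% of all genes higher and 1.32% lower. The median log2 fold change was -0.14, and 21 of the 23 were below 0, against 7390 of 14862 genes tested. CBX7 replicate 1 was the lowest of the 4 libraries for 20 of the 23 (87.0%), against 38.6% of all genes tested. Within replicate number 1 the median was -0.34, and within number 2 it was -0.0059, with 12 of 23 below 0. After the length and GC correction the median was -0.086, with 15 of 23 below 0, against 7571 of 14862 genes. None of the 23 passed the adjusted threshold in any other fit but that without CBX7 replicate 2, where 1 higher and 13 lower passed, against 35.5% of all genes. The 3 largest values were those of WTIP, a LIM-domain adaptor, at 0.42 (standard error 0.24), AMOT, which binds YAP1, at -0.38 (standard error 0.33), and FAT1, a giant cadherin, at -0.35 (standard error 0.44). Within replicate numbers 1 and 2 the log2 ratio was 0.66 and 0.12 for WTIP and -0.89 and -0.040 for AMOT. After the length and GC correction WTIP, AMOT and FAT1 were at 0.62, -0.27 and -0.23. FAT1 had 128 and 173 CPM in control, 170 CPM in CBX7 replicate 2 and 65.5 CPM in CBX7 replicate 1. NF2, the membrane-bound activator of the LATS kinases, had 180 and 182 CPM in control and 190 and 193 CPM with CBX7, and is named here after its values were seen.

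Of the TEAD cofactors and the remaining paralog, VGLL1 and VGLL2 were listed at 0 in all 4 libraries, and 0 of the 3 tested (VGLL3, VGLL4 and TEAD2) passed an adjusted p under 0.05, against 0.0202% of all genes in edgeR and 0.451% in DESeq2's Wald test, or an unadjusted p under 0.05 in edgeR. VGLL4, which competes with YAP1 for TEAD proteins, had 31.2 and 32.8 CPM in control and 26.9 and 32.0 CPM with CBX7. TEAD2 had 20.0 and 18.8 CPM in control and 23.0 and 20.7 CPM with CBX7, a log2 fold change of 0.17 (standard error 0.14). After the length and GC correction that of TEAD2 was 0.047 (standard error 0.10). VGLL3 had 2.29 and 3.57 CPM in control and 1.49 and 5.28 CPM with CBX7, the lowest and the highest library being both of CBX7. The log2 fold change of VGLL3 was 0.20 (standard error 0.60) with all 4 libraries and -0.97 without CBX7 replicate 2, so its sign depends on that library.

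A list of 17 other genes of a commonly used YAP/TAZ target signature was tested, of which 1, PTPN14, also stands in the list of 23. By edgeR's quasi-likelihood test (0.0202% of all genes) and by DESeq2's Wald test (0.451%), 0 of the 17 passed the adjusted threshold. At an unadjusted p under 0.05 in edgeR, 1 was higher (FOXF2), against 3.42% of all genes, and 3 were lower (CCDC80, NT5E and RBMS3), against 1.32%. The median log2 fold change was -0.19, with 13 of 17 below 0, against 7390 of 14862 genes tested. After the length and GC correction it was -0.091, with 15 of 17 below 0, against 7571 of 14862. Within replicate number 1 the median was -0.42 and within number 2 it was -0.048. CBX7 replicate 1 was the lowest library for 12 of the 17 (70.6%, against 38.6% of all genes), and without it the median was -0.030. Both CBX7 libraries lay below both controls for 5 of the 17 and above them for 2, against 14.8% and 15.4% of all genes. FOXF2, a forkhead factor, had 8.68 and 9.002 CPM in control and 15.0 and 12.8 CPM with CBX7, a log2 fold change of 0.65 (standard error 0.16, adjusted p = 0.618, edgeR). CCDC80, a matrix protein, had 14.8 and 15.1 CPM in control and 9.07 and 10.3 CPM with CBX7, a log2 fold change of -0.63 (standard error 0.15, adjusted p = 0.597, edgeR). NT5E, the ecto-nucleotidase CD73, had 132 and 143 CPM in control and 96.7 and 111 CPM with CBX7, a log2 fold change of -0.41 (standard error 0.14, adjusted p = 0.941, edgeR). For these 3 genes the groups did not overlap. Their values after the length and GC correction were 0.43, -0.40 and -0.35, and that of RBMS3 went from -0.37 to -0.18. Unadjusted p after the correction (edgeR) was 0.018 for FOXF2, 0.0073 for NT5E, 0.071 for CCDC80 and 0.34 for RBMS3. For F3, tissue factor, it went from 0.055 to 0.014. The share of all genes under 0.05 in the corrected fit was not computed, so no count is drawn from these values. F3 had 161 and 159 CPM in control and 129 and 132 CPM with CBX7, and its log2 fold change went from -0.30 to -0.32. With the replicate number as a block, FOXF2 and CCDC80 passed the adjusted threshold (2 of 17, against 2.43% of all genes, adjusted p = 0.0238 and 0.0271, edgeR). In that fit a gene's own spread had no weight. With that block and the length and GC correction together, NT5E passed (1 of 17, against 2.23%, adjusted p = 0.0406, edgeR). In the other fits with all 4 libraries 0 of the 17 passed. FOXF2 and CCDC80 also passed without CBX7 replicate 1 (2 of 17, against 2.59%), and 3 higher and 10 lower passed without CBX7 replicate 2, where 35.5% of all genes did.

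**Figure D5:**
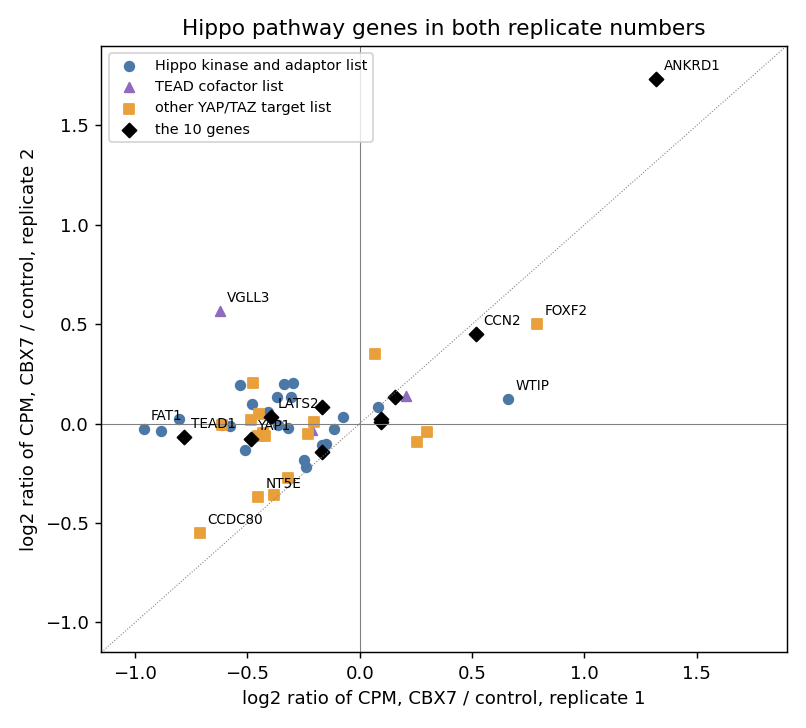
Log2 ratio of CPM between CBX7 and control within replicate 1 (horizontal axis) and within replicate 2 (vertical axis) for the 10 genes (black diamonds), the kinase and adaptor list (blue circles), TEAD cofactors and TEAD2 (purple triangles) and the 17 other targets (orange squares), with equality dotted. ANKRD1 at 1.32 and 1.74 and CTGF (CCN2) at 0.52 and 0.45 are away from 0 on both axes, while TEAD1 and FAT1 are at -0.78 and -0.96 on the replicate 1 axis and at -0.066 and -0.028 on the other.

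The profile of YAP1 over the 4 libraries was nearest to those of DDX17, ZNF462 and ATP11B, with root mean square differences of 0.0068, 0.011 and 0.011 in centred log2 CPM, among 11076 genes that averaged 100 counts or more. Of the other 9 genes, LATS2 was nearest to YAP1, at rank 293. CTGF was nearest to NCS1, SH2B2 and SCLY, with differences of 0.017, 0.024 and 0.026. TEAD4 and CYR61 followed at ranks 1872 and 2960, and ANKRD1 was at rank 10511, with a larger difference between groups than CTGF. These ranks are a description over 4 libraries.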

How the data were processed

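Total RNA of T24 cells (2 control and 2 CBX7 libraries) was sequenced on an Illumina HiSeq instrument. The authors deposited an expected count per gene and library, not always whole, and a TPM per gene and library with group means. The submitters' processing notes list cutadapt 1.9.1, HISAT2 2.0.1, HTSeq 0.6.1, DESeq2 and hg19, with no order, and the step that made the values is not given in the sources used here. The authors' own fold changes and p-values were not used. The table holds no coordinates. Gene positions and transcript lengths came from GENCODE release 29 (GRCh38) by gene ID.

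Rounded counts passed filterByExpr, were scaled with TMM and were tested in edgeR 4.0.16 (glmQLFit, glmQLFTest, defaults, R 4.3.3), with Benjamini-Hochberg adjustment over 14862 genes. Standard errors are the log2 fold change over the square root of F. For the length and GC correction, smooth trends (mgcv 1.9.3) were fitted per library over genes averaging 100 counts or more and entered as offsets. DESeq2 1.42.0 and limma 3.58.1 were alternatives. Scripts were tested on simulated data. The genes and lists were chosen with earlier results of these data known. Named from each list are genes past an adjusted p of 0.05, otherwise the 3 largest absolute log2 fold changes with a mean of at least 50 counts. Outside this rule, RBMS3 and F3 are named for their unadjusted p (edgeR), that of F3 after the length and GC correction. NF2 is named after its values were seen.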

Additional observations from a re-analysis of the deposited data

How the results depend on the processing

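Of the 10 genes, 0 passed an adjusted p of 0.05 in edgeR with DESeq2's size factors, upper-quartile normalization, the newer quasi-likelihood method, at least 10 counts in every library, the length and GC correction, or with limma on log2 TPM with a pseudocount of 1 or 0.1. ANKRD1 alone (1 gene) passed with no filter, by DESeq2's Wald test, with the replicate block, and after a correction by effective length (counts over TPM) and GC content, which was chosen after seeing the data. ANKRD1 and CTGF (2 genes) passed with the replicate block added to the planned correction by transcript length and GC content. In the fits with no filter or with the block alone, a gene's own spread had no weight. In leave-one-out fits 0 to 5 of the 10 passed: 0 without control replicate 2, ANKRD1 without control replicate 1, ANKRD1 and CTGF without CBX7 replicate 1, and those with YAP1, TEAD1 and LATS2 without CBX7 replicate 2. Over all genes the count past the threshold was 3 in the first test, 265 with no filter, 67 by DESeq2's Wald test, 361 with the replicate block, 9 after the length and GC correction, 331 with both, 75 after the effective-length correction, and 45 to 5491 in leave-one-out fits. The labels do not say that the replicate number marks a pairing. The deviations of libraries sharing a number correlated at 0.31 over 14862 genes, and 2 pairs are too few to establish one.

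Values near 0 changed sign. WWTR1 was at 0.066 after the length and GC correction, 0.064 with the block added and 0.080 after the effective-length correction. TEAD3 was at -0.064, -0.066 and -0.0060 in the same fits, and at -0.057 and -0.063 with limma. TEAD4 was at -0.031 and -0.047 in the first 2 of them, and CYR61 at -0.047 with limma at either pseudocount. In leave-one-out fits the log2 fold change ran from -0.60 to 0.032 for YAP1, -0.24 to 0.16 for WWTR1, -0.94 to 0.081 for TEAD1, -0.031 to 0.13 for TEAD3, -0.046 to 0.16 for CYR61 and -0.49 to 0.13 for LATS2. ANKRD1 (1.12 to 1.78 over all fits), CTGF (0.37 to 0.57) and AMOTL2 (-0.27 to -0.094) kept their sign in all 16 alternatives. The cause of these changes was not tested.

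The median of the kinase and adaptor list, -0.14, stayed between -0.25 and -0.058 with all 4 libraries and ran from -0.42 to 0.088 in leave-one-out fits. That of the TEAD cofactors, 0.17, was 0.044 with the block, 0.047 after the length and GC correction, 0.045 with both, -0.081 and -0.088 with limma, and -0.25 to 0.13 in leave-one-out fits. That of the 17 other targets, -0.19, was -0.091 and -0.0996 after the correction without and with the block, -0.057 with effective length, -0.27 and -0.29 with limma, and -0.31 to -0.030 in leave-one-out fits.

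With counts per kilobase of the deposited length, ranks in control were 2 for TEAD1, 3 for WWTR1, 4 for AMOTL2, 5 for TEAD4, 6 for YAP1, 7 for CTGF, 8 for LATS2 and 9 for TEAD3. With CBX7 they were 2 for TEAD1, 3 for WWTR1, 5 for CTGF and 6 for AMOTL2. Each group has 2 libraries, which limits all of these values.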
